A study of Homo sapiens with 12 samples.

Results

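Untreated NS1 cells were compared with untreated WT cells of T24, an established human bladder carcinoma line. The 2 groups were chosen by their genotype and treatment labels and hold 6 of the 12 poly(A) RNA-seq libraries of the series, 3 for each line. The WT group is labelled with genotype WT and no treatment, and the NS1 group with genotype NS1 and no treatment. The other 6 libraries come from the same lines treated with 5-Ad-IAA, an auxin derivative. Their line difference is given beside the untreated one, and it also includes any effect of the compound that differs between the lines. The series concerns AlissAID, a degron system that recruits an untagged cellular protein to an auxin-dependent SCF ubiquitin ligase by means of a synthetic binder. The labels do not spell out NS1, do not say which parts of the system the WT cells carry, and do not say whether the NS1 line is a single clone or a pool. Nothing in them says that libraries of a group came from separate cultures, so the p-values measure the spread between these libraries, which may be technical.

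Urothelial carcinoma lines are described along a luminal to basal axis of cytokeratins, uroplakins and transcription factors, and along an epithelial to mesenchymal axis of junction and cytoskeletal genes. Secreted ligands and matrix proteins of such cells act on neighbouring cells, and many of them are targets of the TGF-beta and YAP pathways. Type I interferon signalling runs from the receptor through the kinases JAK1 and TYK2 to a transcription factor complex that includes IRF9, which binds the interferon-stimulated response element in the promoters of its target genes.

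Interferon-stimulated genes were the list with the largest share of members lower in NS1 cells. The lists and their members were chosen with earlier results of these data known, so the shares called are a description. The sequences shown first are promoter windows with the element named above. The core of that element, GAAA, any 2 bases and GAAA again, was searched on both strands of RefSeq promoters (GRCh38.p14), from 250 bases before to 50 bases after each start site. It lay in 32 of the 51 interferon list members with a promoter in that table (62.7%), against 308 of 11052 promoters of all genes tested (2.79%). Among the members called lower it lay in 21 of 35 (60%), and among those not called in 11 of 16 (68.8%). The match is a description of letters, not a binding site. The following 60-base windows hold a match in ISG20, MX1 and SOCS1, with the motif in capitals and the gene's own strand printed 5′ to 3′. They are shown because these genes were lower in NS1 cells and differ in where the motif lies, with its first base at -69, 11 and -113 from the start site in ISG20, MX1 and SOCS1.
ISG20, chr15:88638922-88638981, plus strand: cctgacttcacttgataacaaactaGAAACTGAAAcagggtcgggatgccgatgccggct
MX1, chr21:41420544-41420603, plus strand: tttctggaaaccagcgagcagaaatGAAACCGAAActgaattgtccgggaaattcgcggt
SOCS1, chr16:11256283-11256342, minus strand: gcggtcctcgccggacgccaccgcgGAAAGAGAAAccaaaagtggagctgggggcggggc
No match was found in the searched promoter of IL10RB, IRF5 or IRF9. SOCS1, IL10RB and IRF5 are not members of the interferon-stimulated gene list, so the shares above do not count them.

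The untreated libraries held 10593934 to 20266996 counts. Mitochondrial transcripts took 1.267% to 2.756% of the counts in WT and 0.8083% to 1.333% in NS1 libraries, so the groups overlap, and 10 of 36 mitochondrial genes tested were lower in NS1 cells. The first principal component of the 6 libraries held 52.1% of the variance, with WT and NS1 libraries on opposite sides. The second held 17.9% and set replicate 1 of both lines apart from replicates 2 and 3. Pairs of libraries were also compared by a chi-square per degree of freedom, near 1 where only counting error separates them. It was 3.03 for NS1 replicates 2 and 3, and 18.05 and 17.57 for NS1 replicate 1 with each of them. Between WT libraries it was 18.2 to 30.65. Of 17775 genes tested with edgeR, 12.5% were called at an adjusted p under 0.05, 5.45% higher and 7.05% lower in NS1 cells. Levels are given as CPM, counts scaled to a common library total with the TMM factors, and those of the lines did not overlap in 31% of genes. The fits that left out NS1 replicate 1, 2 or 3 called 1446, 1198 and 1265 genes, against 2222 with all libraries. The other single untreated libraries moved the count by less than 1.5 times.

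The difference between the lines had a chromosomal pattern. Over genes with a mean of at least 1 CPM, the median log2 fold change of NS1 against WT was -0.41 on chromosome 7 (773 genes), -0.28 on chromosome 17, -0.20 on chromosomes 11 and 22, and 0.33 on chromosome 18. Chromosome 10 was split: the median was -0.46 below 40 Mb (138 genes) and 0.35 above it (485 genes). On chromosome 1 it was 0.03. Of the genes on chromosome 7, 86.3% had a negative log2 fold change.

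The pattern ran along whole chromosomes or arms rather than in single clusters of genes. All 13 windows of 10 Mb on chromosome 7 that held at least 20 genes had medians between -0.58 and -0.29. On chromosome 10 the 4 windows below 40 Mb lay between -0.54 and -0.33, and the 8 above it between 0.27 and 0.38. The 9 windows of chromosome 17 lay between -0.32 and -0.18. Those of chromosome 18 were uneven, from 0.07 to 0.73.

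Single libraries showed the same shifts. Relative to the WT mean of each gene on the log2(CPM + 0.5) scale, the chromosome 7 medians were 0.02, -0.01 and 0.01 in WT replicates 1, 2 and 3, and -0.29, -0.44 and -0.45 in NS1 replicates 1, 2 and 3. On chromosome 10 below 40 Mb the NS1 medians were -0.36, -0.43 and -0.46, and above 40 Mb 0.37, 0.32 and 0.33. In the latter stretch WT replicate 1 stood at 0.12, against -0.05 and -0.08 in WT replicates 2 and 3. NS1 replicate 1 stood apart from the other NS1 libraries on 3 further chromosomes. Its medians were -0.23, -0.18 and -0.28 on chromosomes 9, 12 and 16, where NS1 replicates 2 and 3 lay between 0.04 and 0.06. The treated NS1 library with the same number had -0.28, -0.21 and -0.26 there. The treated libraries, which share no library with this comparison, gave line differences of -0.42 on chromosome 7, -0.50 and 0.32 on chromosome 10 below and above 40 Mb, -0.25 on chromosome 17 and 0.26 on chromosome 18.

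The called genes followed these stretches. Chromosomes 7, 11, 17 and 22 and chromosome 10 below 40 Mb held 720 of the 1254 genes lower in NS1 cells (57.4%), with 19.9% of the genes tested. Chromosome 18 and chromosome 10 above 40 Mb held 209 of the 968 genes higher in NS1 cells (21.6%), with 4.47% of the genes tested. These stretches were picked from their medians, so the shares are a description. Of the 348 genes at least 2-fold lower, 150 (43.1%) lay there, and of the 333 genes at least 2-fold higher, 50 (15%). Of all genes tested, 1.87% were called at least 2-fold higher and 1.96% at least 2-fold lower. DNA was not analysed here, so the part of DNA copy number was not tested.

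**Figure D1:**
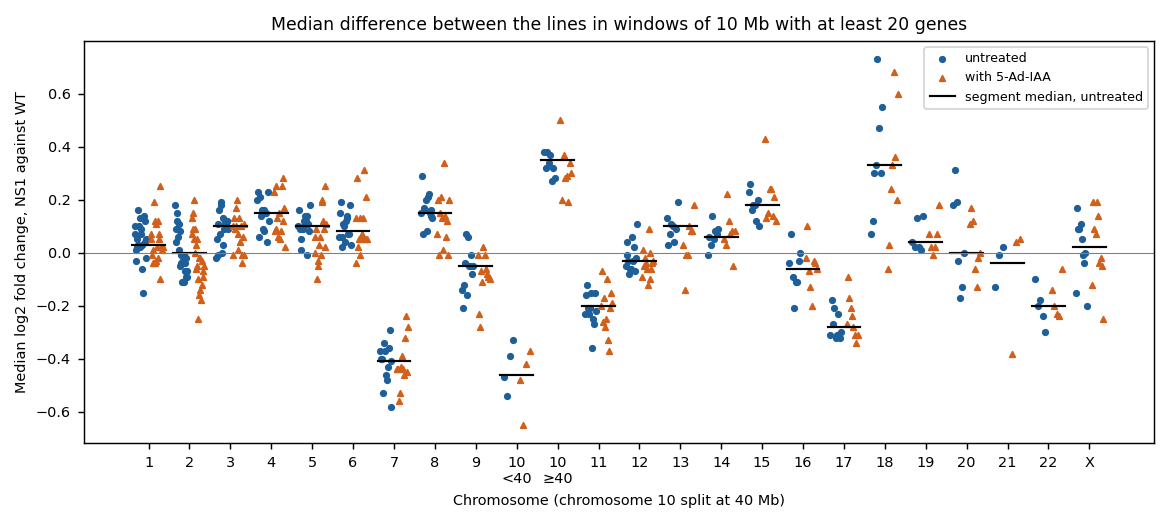
Each point is the median log2 fold change, NS1 against WT, of the genes in a 10 Mb window with at least 20 genes, in chromosome order on the x axis. Circles are untreated and triangles treated libraries, and the bars are medians of untreated libraries over each chromosome. All windows of chromosome 7 lie below 0, and chromosome 10 steps from untreated medians of -0.54 to -0.33 below 40 Mb to 0.27 to 0.38 above it.

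The genes with the highest fold changes are not a single class. RTN1 (ENSG00000139970.17, chromosome 14), a reticulon of the endoplasmic reticulum that is abundant in neurons, had 0.234, 0.0751 and 0.0967 CPM in WT replicates 1, 2 and 3 and 16.7, 21.2 and 19 in NS1 replicates 1, 2 and 3. IGFBP5 (ENSG00000115461.5, chromosome 2), a secreted protein that binds insulin-like growth factors, had 2.44, 7.28 and 6.09 CPM in WT and 358, 527 and 553 in NS1 libraries. The lines are far apart in both genes, with log2 fold changes of 6.87 (SE 0.31) for RTN1 and 6.56 (SE 0.59) for IGFBP5, which an antisense gene overlaps. TLL1, a protease of the tolloid group that cleaves procollagens and the BMP antagonist chordin, had 0.328, 1.05 and 0.58 CPM in WT and 10.7, 16.8 and 17.1 in NS1 libraries (log2 fold change 4.57, SE 0.38, adjusted p 1.72e-05). FRAS1, a basement membrane protein, had 0.843, 1.73 and 2.13 CPM in WT and 14, 26.6 and 22.8 in NS1 libraries (3.84, SE 0.46, adjusted p 0.000288). FIBCD1, a membrane receptor for chitin, had a log2 fold change of 4.01 (SE 0.40). KCTD16, a subunit that binds GABA-B receptors, had 5.42 (SE 0.61). PPP2R2B, a regulatory subunit of the phosphatase PP2A, had 4.74 (SE 0.51). In each of these 7 genes every NS1 library lay above every WT library, and each kept its call when any single untreated library was left out.

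C4orf19, RNF150 and CD24 were near the limit of detection in WT cells. C4orf19 had 6 counts in the WT libraries together and 328 in the NS1 libraries, a ratio of 60.97 with an exact 95% counting interval from 27.71 to 167.4. RNF150, a predicted ubiquitin ligase, had 5 and 139 counts (31.01, from 12.97 to 96.99). CD24, a surface glycoprotein of epithelial and progenitor cells, had 5 and 77 counts (17.18, from 7.05 to 54.39), and it has near-identical pseudogenes that may share its reads. The remaining genes among the 15 highest were ZNF704, TRBC2, ANKRD30B, MAN1A1 and PPP1R14C, with log2 fold changes from 3.89 to 4.56. MAN1A1, a Golgi mannosidase, rested on NS1 replicate 1, with 16.2 CPM there against 3.49 and 2.79 in NS1 replicates 2 and 3 and 0.45 to 0.58 in WT libraries. Its log2 fold change was 2.66 without NS1 replicate 1, with an adjusted p of 0.0846. It also lost its call without any of the WT libraries, with adjusted p of 0.0527 to 0.0584.

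TRBC2, the constant segment of the T cell receptor beta chain, lies at chr7:142801041-142802748, on a chromosome where most genes were lower. It had 0.0469, 0.15 and 0.483 CPM in WT and 1.85, 5.02 and 5.39 in NS1 libraries. Another gene of chromosome 7, the kinase-dead receptor EPHB6, was also higher, with 0.281, 0.375 and 0.387 CPM in WT and 4.75, 4.51 and 4.42 in NS1 libraries (log2 fold change 3.73, SE 0.25, adjusted p 3.02e-06).

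At the low end, PEG10 and SGCE were close to or at 0 in NS1 cells. PEG10 (ENSG00000242265.5, chr7:94656325-94669695), a retrotransposon-derived gene expressed from the paternal allele, had 165, 145 and 101 CPM in WT libraries and 0, 0 and 0.0962 in NS1 libraries. That is 6497 counts against 1, a ratio of 5825 with a counting interval from 1045 to 230100. SGCE (ENSG00000127990.18), which encodes epsilon-sarcoglycan, is imprinted in the same direction and overlaps the start of PEG10. It had 18, 20.6 and 17 CPM in WT libraries and no count in NS1 libraries, so it was at least 64.26-fold lower, taken against 3 counts in the smallest library. A further neighbour, CASD1, which was named after its values were seen, was still present in NS1 cells, with 10.6, 12.2 and 8.02 CPM in WT and 6.97, 6.47 and 5.39 in NS1 libraries (log2 fold change -0.71, SE 0.19, adjusted p 0.0286).

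Imprinted genes as a list did not move in a single direction. Of 24 tested, 3 were higher and 5 lower (over all genes 5.45% higher, 7.05% lower), with a median of -0.07. The 5 lower members were PEG10, SGCE, MEST, PPP1R9A and GRB10, all on the stretches with lower medians. PPP1R9A, a neighbour of SGCE that encodes neurabin, had 6.61, 8.11 and 5.61 CPM in WT and 2.28, 1.89 and 2.21 in NS1 libraries (log2 fold change -1.67, SE 0.23). MEST, a paternally expressed hydrolase, had 8.76, 2.85 and 2.71 CPM in WT and 1.23, 0.799 and 1.15 in NS1 libraries (-2.21, SE 0.58, adjusted p 0.0248). Its adjusted p was 0.122 without WT replicate 1 and 0.0635 to 0.0935 without any of the NS1 libraries. CDKN1C, a cell cycle inhibitor expressed from the maternal allele, had 2.30, 2.55 and 3.19 CPM in WT and 22.2, 6.4 and 4.71 in NS1 libraries (2.10, SE 0.58, adjusted p 0.0311). It was highest in NS1 replicate 1, without which its log2 fold change was 1.09 and its adjusted p 0.182, and it lost its call without any of the WT libraries (0.071 to 0.0905). The list had 4 calls without WT replicate 1 and 5 without NS1 replicate 1, against 8.

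Outside chromosome 7, ZNF518B (ENSG00000178163.8, chromosome 4), a zinc finger gene, had 6, 5.48 and 5.22 CPM in WT libraries and no count in NS1 libraries, at least 19.29-fold lower. PRTFDC1 (chromosome 10), a relative of the purine salvage enzyme HPRT1, had 288 counts in WT and 3 in NS1 libraries (ratio 86.07, counting interval 29.16 to 419.8). KCNN4, a calcium-activated potassium channel on chromosome 19, had 8.76, 4.43 and 5.32 CPM in WT and 0.247, 0.0727 and 0.192 in NS1 libraries (log2 fold change -5.11, SE 0.48, adjusted p 4.84e-05). TFAP2C, a transcription factor of epithelial and trophoblast cells on chromosome 20, had 14.6, 18.8 and 14.9 CPM in WT and 1.54, 1.16 and 1.15 in NS1 libraries (-3.62, SE 0.23, adjusted p 1.99e-06). SLPI, a secreted inhibitor of leukocyte proteases (chr20:45252239-45254564), had 9.98, 20.5 and 28.0 CPM in WT and 1.30, 2.54 and 2.69 in NS1 libraries (-3.17, SE 0.50, adjusted p 0.00182). The groups did not overlap in any of these genes, and their calls held with each single untreated library left out. The others among the 15 lowest were MAGI2-AS3, FAM133A, ZNF853, STEAP1B and PLEKHA4, besides TNFSF10, HOXA7 and HOXA-AS3, which are described with their lists. MAGI2-AS3 had 143 and 4 counts in WT and NS1 libraries (ratio 32.05, counting interval 12.25 to 119.2) and overlaps MAGI2 (log2 fold change -2.97, adjusted p 0.01) on the other strand, so reads of these genes cannot be told apart where strand was not used.

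**Figure D2:**
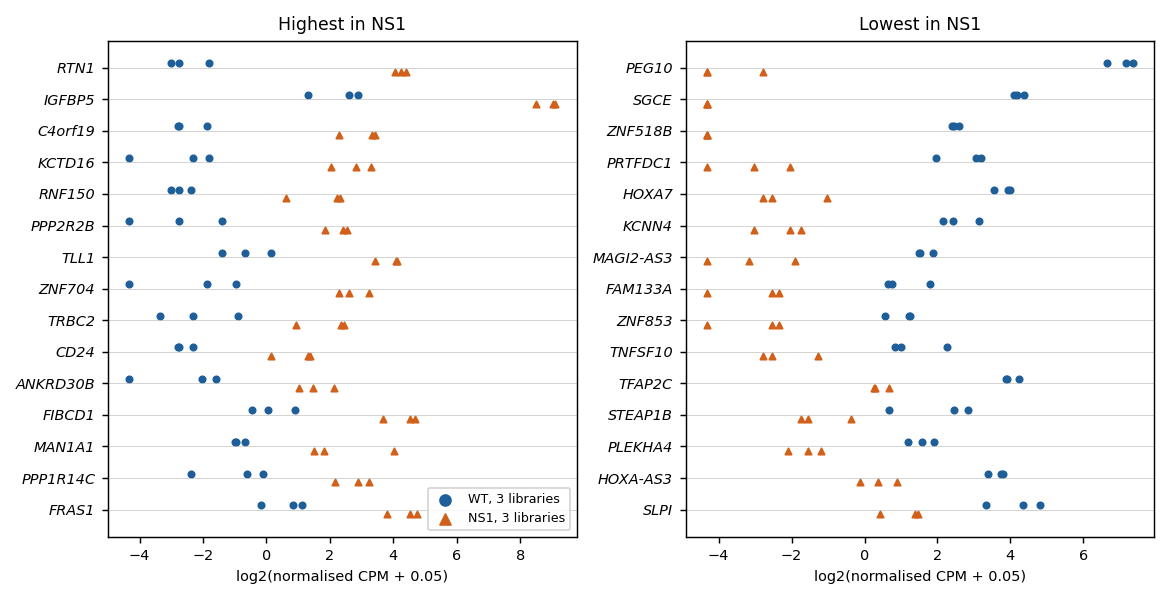
Each row is a gene and each point a library, on the scale log2(normalised CPM + 0.05), with WT as circles and NS1 as triangles, 3 libraries each. The left panel holds the 15 genes with the highest and the right panel the 15 with the lowest log2 fold change among genes called without overlap. SGCE and ZNF518B sit at the left edge in all NS1 libraries, which is 0 CPM.

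The label of the cells was checked against urothelial and other markers. The cytokeratins of simple and luminal epithelium were present in both lines. KRT7 had 2930, 1534 and 1930 CPM in WT and 2003, 3927 and 4030 in NS1 libraries, and KRT8 1812, 1652 and 2169 against 1156, 1968 and 2023. The groups overlap in both genes, and neither was called (adjusted p 0.253 and 0.78). KRT8 and KRT18 overlap in the genome, so some of their reads may be shared. KRT19 was higher in NS1 cells, with 211, 175 and 256 CPM in WT and 252, 406 and 444 in NS1 libraries by normalised CPM, where the lowest NS1 and highest WT library overlap (log2 fold change 0.78, SE 0.21, adjusted p 0.0312). It lost its call in 4 of the 6 fits without a single library, with adjusted p up to 0.123 without NS1 replicate 3. The urothelial factors GATA3, FOXA1 and PPARG were present without a call, at log2 fold changes of -0.11 (SE 0.32), 0.40 (SE 0.24) and 0.43 (SE 0.26). In the treated libraries they were called higher, at 1.38, 0.97 and 0.84 (edgeR adjusted p 0.00638, 0.0099 and 0.0281), as was KRT7 at 1.16 (0.0243). KRT8 was not called there (0.30, adjusted p 0.404). Without replicate 1 of all groups KRT7, PPARG and FOXA1 were called in untreated cells (adjusted p 0.00012, 0.000572 and 0.00577), and GATA3 was not (0.143). Without replicate 2 or 3 none of them was. UPK2, a uroplakin of the urothelial surface, had 1.64 to 1.97 CPM in WT and 0.864 to 1.74 in NS1 libraries. KRT17, a cytokeratin of basal cells, was not called (log2 fold change -0.47).

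Several defining markers were at or near 0 in both lines. KRT5, KRT20, UPK3A and the basal factor TP63 had no count in the 6 libraries. KRT14 had 0 and 1 count in WT and NS1 libraries, UPK1B 3 and 1, and CDH1, the cadherin of epithelial junctions, 3 and 0. PTPRC, which all leukocytes express, had no count.

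Calls among basal and luminal genes were few in untreated cells, and the difference between these lists was not tested. Of 15 basal genes tested, 5 were lower and 0 higher (over all genes 7.05% lower, 5.45% higher). The median log2 fold change was -0.47. Those described here are ITGA6, COL17A1 and LAMA3, which encode parts of the hemidesmosome and its basement membrane anchor, and the cytokeratin KRT15. LAMA3, a laminin alpha chain of epithelial basement membranes, had 6.70, 6.91 and 3.38 CPM in WT and 1.91, 2.98 and 2.40 in NS1 libraries (log2 fold change -1.24, SE 0.27, adjusted p 0.0101). ITGA6, an integrin alpha chain that binds laminins, had 517, 732 and 520 CPM in WT and 316, 283 and 271 in NS1 libraries (-1.02, SE 0.17). COL17A1, a transmembrane collagen of the hemidesmosome, had a log2 fold change of -1.06 (SE 0.30) and lies on chromosome 10 above 40 Mb, where most genes were higher. It lost its call in all 6 fits without a single library (adjusted p 0.0522 to 0.116), and KRT15 did in 3 of 6 (up to 0.0784). The list had 3 to 5 calls in those fits, 3 without WT replicate 3, NS1 replicate 1 or NS1 replicate 3. Of 13 luminal genes, 2 were higher, KRT19 and the fatty acid carrier FABP4, and 0 lower, with a median of -0.11. In treated cells 8 luminal genes were higher and 1 lower, and 0 basal genes were higher and 8 lower. There 28.2% of all genes were called. The luminal list had 1 call without WT replicate 1, WT replicate 2, NS1 replicate 2 or NS1 replicate 3, and 3 without WT replicate 3.

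Epithelial junction genes had calls in both directions, and mesenchymal genes had more calls higher than lower. Among 18 epithelial junction genes 1 was higher and 2 were lower (over all genes 5.45% higher, 7.05% lower), with a median of 0.06. Desmoplakin (DSP), which ties desmosomes to keratin filaments, had 23.3, 25.8 and 20.4 CPM in WT and 108, 156 and 155 in NS1 libraries (log2 fold change 2.59, SE 0.19, adjusted p 6.22e-06). Its partner plakoglobin (JUP), on chromosome 17, went the other way, with 137, 98.8 and 100 CPM in WT and 50.9, 80.9 and 79.8 in NS1 libraries (-0.67, SE 0.20, adjusted p 0.0466). EPCAM, an epithelial adhesion molecule, had 4.50, 2.18 and 2.42 CPM in WT and 0.617, 0.872 and 1.35 in NS1 libraries (-1.76, SE 0.41, adjusted p 0.0155). JUP lost its call in all 6 fits without a single library (0.055 to 0.152) and EPCAM in 3, without WT replicate 1, NS1 replicate 1 or NS1 replicate 2 (0.0599 to 0.0679). The list had 1 call without WT replicate 1, NS1 replicate 1 or NS1 replicate 2, and 2 without WT replicate 3 or NS1 replicate 3.

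Of 20 mesenchymal genes tested, 6 were higher and 1 was lower (over all genes 5.45% higher, 7.05% lower), and the median was 0.07. The higher members named here encode cytoskeletal, matrix, adhesion and regulatory proteins. Transgelin (TAGLN), an actin-binding protein of smooth muscle and myofibroblasts, had 64.1, 83.7 and 114 CPM in WT and 260, 314 and 344 in NS1 libraries (log2 fold change 1.81, SE 0.29, adjusted p 0.00181). Tropomyosin 1 (TPM1) had 253, 270 and 303 CPM in WT and 541, 644 and 671 in NS1 libraries (1.17, SE 0.14, adjusted p 0.000322). Fibrillin 1 (FBN1), the main protein of microfibrils, had 329, 321 and 198 CPM in WT and 577, 575 and 564 in NS1 libraries (1.02, SE 0.17). N-cadherin (CDH2), on chromosome 18, had 91.7, 105 and 80.0 CPM in WT and 140, 131 and 144 in NS1 libraries (0.58, SE 0.12). SNAI1, a repressor of CDH1, was near the threshold (1.15, SE 0.35, adjusted p 0.0496) and lost its call in 5 of the 6 fits without a single library, up to 0.146 without WT replicate 1. Vimentin (VIM), the intermediate filament by which mesenchymal cells are known, was lower. It had 87.7, 56.4 and 64.3 CPM in WT and 28.9, 29.1 and 33.3 in NS1 libraries (-1.20, SE 0.18, adjusted p 0.00159). VIM lies on chromosome 10 below 40 Mb, and taking off the median of that stretch left -0.74, an alternative chosen after the data were seen. FN1, which encodes fibronectin, had 3547, 8864 and 3622 CPM in WT and 3536, 4009 and 3805 in NS1 libraries, with a single high WT library and no call (-0.50, SE 0.40, adjusted p 0.458).

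HOX genes record the position of a cell along the body axis. Of 32 tested, 3 were higher and 5 lower (over all genes 5.45% higher, 7.05% lower), with a median of -0.03. HOXA7 had the largest fold change of the called members described here. Of the 3 higher members, HOXC13 and HOXD8 kept their calls in all 6 fits without a single library. Their log2 fold changes there were 1.22 to 1.85 and 0.73 to 0.93. HOXA7 (ENSG00000122592.8, chromosome 7) had 16.0, 11.8 and 15.4 CPM in WT and 0.123, 0.436 and 0.0962 in NS1 libraries (log2 fold change -5.96, SE 0.37, adjusted p 1.56e-06). The long noncoding RNA HOXA-AS3 (chr7:27129977-27155928, plus strand), which overlaps HOXA7 on the opposite strand, had 14, 10.4 and 13.3 CPM in WT and 0.864, 1.82 and 1.25 in NS1 libraries (-3.27, SE 0.24, adjusted p 5.63e-06). The other HOX genes under HOXA-AS3 were not called. HOXA3, HOXA4, HOXA5 and HOXA6, named after their values were seen, had log2 fold changes of 0.04, -0.24, 0.06 and 0.35, with adjusted p of 0.933, 0.528, 0.839 and 0.508. HOXA5 had 8.90, 8.11 and 8.60 CPM in WT and 9.81, 9.67 and 7.12 in NS1 libraries, so the groups overlap. On the far side, HOXA9 was lower (log2 fold change -1.28, SE 0.35, adjusted p 0.0292) and HOXA10, again named after its values were seen, was not called (0.26, adjusted p 0.229). Of the 5 lower HOX genes, 4 lie on the stretches with lower medians. HOXA9 lost its call in 4 of the 6 fits without a single library (up to 0.0953 without WT replicate 1), and HOXA7 and HOXA-AS3 kept theirs. The list had 3 to 8 calls, with 3, 4, 5, 5 and 5 without WT replicate 3, NS1 replicate 1, WT replicate 2, NS1 replicate 2 and NS1 replicate 3.

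Markers of other cells were sparse. Of 12 fibroblast markers 2 were tested and 0 called, with summed levels of 2.852 to 7.731 CPM in WT and 2.963 to 6.178 in NS1 libraries, and 5 at 0 in all libraries. Of 12 endothelial markers 5 were tested and 0 called, with sums of 10.82 to 15.95 CPM in WT and 4.942 to 5.493 in NS1 libraries. Of 17 blood cell markers 3 were tested and 8 were at 0, with sums of 14.95 to 26.97 and 9.752 to 18.95 CPM. The blood cell marker called was SLAMF7, a lymphocyte receptor, with 3 counts in WT and 69 in NS1 libraries (ratio 25.65, counting interval 8.419 to 127.4, adjusted p 0.0129, and 0.0557 without WT replicate 1). Of 7 neuronal markers tested RTN1 was called. These lists were chosen with earlier results of these data known, so the calls of SLAMF7 and RTN1 may follow from that choice. The part of other cell types in these results was not tested.

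Collagens and matrix glycoproteins differed in both directions. Of 21 collagen genes tested, 4 were higher and 3 lower (over all genes 5.45% higher, 7.05% lower), with a median of 0.08. Of the 4 higher, 1 lies on chromosome 18 or chromosome 10 above 40 Mb. Of 59 basement membrane and matrix glycoprotein genes, 10 were higher and 7 lower, with a median of 0.07, and the sizes were large. LAMA1, the laminin alpha chain of early basement membranes, on chromosome 18, had 2.34, 2.63 and 2.61 CPM in WT and 26.8, 18.8 and 17.4 in NS1 libraries (log2 fold change 3.07, SE 0.26, adjusted p 2.57e-05). Of the other laminin alpha chains tested, LAMA3, given above, and LAMA5 were lower, and LAMA4 was not called (0.07, adjusted p 0.846). LAMA4 and LAMA5 were named after their values were seen. LAMA5 had 470, 419 and 358 CPM in WT and 277, 313 and 303 in NS1 libraries (-0.48, SE 0.12, adjusted p 0.0215). EDIL3, an integrin ligand, had 15.5, 11 and 6.77 CPM in WT and 62.8, 68.2 and 58.8 in NS1 libraries (2.48, SE 0.23, adjusted p 4.34e-05). TGFBI, an adhesion protein induced by TGF-beta, had 31.0, 20.1 and 22.2 CPM in WT and 132, 105 and 111 in NS1 libraries (2.24, SE 0.16, adjusted p 5.63e-06). The groups were apart in LAMA1, EDIL3 and TGFBI, and each kept its call with any single library left out. The glycoprotein list had 10 calls without NS1 replicate 3 and 12 to 16 without each of the other libraries, against 17.

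Among collagens, COL14A1, a collagen that binds fibril surfaces, had 3 counts in WT and 27 in NS1 libraries (ratio 10.04, counting interval 3.089 to 51.7). COL13A1, a transmembrane collagen, had 9.93, 9.31 and 8.89 CPM in WT and 12.3, 23.0 and 21.3 in NS1 libraries (log2 fold change 1.00, SE 0.26, adjusted p 0.025). COL18A1, the source of endostatin, had 290, 255 and 191 CPM in WT and 308, 476 and 439 in NS1 libraries (0.73, SE 0.22, adjusted p 0.0473). In both, NS1 replicate 1 was close to the WT libraries. COL6A2, a chain of the beaded-filament collagen VI, had 373, 312 and 367 CPM in WT and 257, 201 and 213 in NS1 libraries (-0.65, SE 0.15, adjusted p 0.0143). With single libraries left out, COL13A1 lost its call in 5 fits (up to 0.101 without NS1 replicate 2), COL18A1 in 4 (up to 0.159 without WT replicate 3) and COL6A2 without NS1 replicate 2 or 3 (0.071 and 0.059). The collagen list had 2, 2, 3 and 4 calls without NS1 replicate 2, NS1 replicate 3, WT replicate 2 and WT replicate 3, against 7.

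Proteoglycans were lower in 4 and higher in 2 of 20 genes tested (over all genes 7.05% lower, 5.45% higher), with a median of -0.21. Syndecan 2 (SDC2), a heparan sulfate co-receptor, had 1.26, 1.2 and 1.16 CPM in WT and 17.2, 6.32 and 7.31 in NS1 libraries (log2 fold change 3.08, SE 0.46, adjusted p 0.00123). CSPG4, known as NG2 and a pericyte and melanoma antigen, had 16.3, 30.03 and 31.8 CPM in WT and 7.96, 6.83 and 7.79 in NS1 libraries (-1.78, SE 0.30, adjusted p 0.00285). SPOCK1, a testican, had 461, 553 and 449 CPM in WT and 245, 228 and 237 in NS1 libraries (-1.04, SE 0.15, adjusted p 0.00107). ESM1 (endocan), a secreted dermatan sulfate proteoglycan, had 14.3, 96.5 and 75.4 CPM in WT and 10.6, 11 and 10.9 in NS1 libraries (-2.51, SE 0.64, adjusted p 0.0228). Its difference rests on WT replicates 2 and 3, and it lost its call in 5 of the 6 fits without a single library (0.0655 to 0.08). SDC2, CSPG4 and SPOCK1 kept theirs.

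Matrix proteases and their inhibitors were higher in 6 and lower in 4 of 41 genes (over all genes 5.45% higher, 7.05% lower). Their median was 0.05. Those with the highest fold changes process procollagen or belong to the same families. Besides TLL1, ADAMTS3, a procollagen and VEGF-C processing protease, had 0.281, 0.15 and 0 CPM in WT and 2.28, 1.16 and 2.12 in NS1 libraries (log2 fold change 3.36, SE 0.62, adjusted p 0.0041). ADAMTS2, a procollagen N-propeptidase, had no count in WT and 36 counts in NS1 libraries, at least 3.003-fold higher, and lost its call in 4 of the 6 fits without a single library (adjusted p up to 0.0761 without NS1 replicate 2). Lower were MMP17, a membrane-anchored metalloproteinase, with 3.61, 3.98 and 4.45 CPM in WT and 0.37, 1.02 and 0.673 in NS1 libraries (-2.55, SE 0.33, adjusted p 0.000533), and cathepsin S (CTSS), a protease of antigen processing (-3.04, SE 0.58, adjusted p 0.00538). PCOLCE, on chromosome 7, which speeds procollagen C-propeptide removal, was slightly lower (-0.77, SE 0.23, adjusted p 0.0422), and LOXL2, a lysyl oxidase that crosslinks collagen, slightly higher (0.72, SE 0.20, adjusted p 0.0349). PCOLCE lost its call in all 6 fits without a single library (0.0603 to 0.116) and LOXL2 in 5 (up to 0.128 without NS1 replicate 3). Among integrins, 1 of 15 was higher and 1 lower: ITGA11, a collagen receptor of fibroblasts (1.59, SE 0.33, adjusted p 0.00833), and ITGA6.

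**Figure D3:**
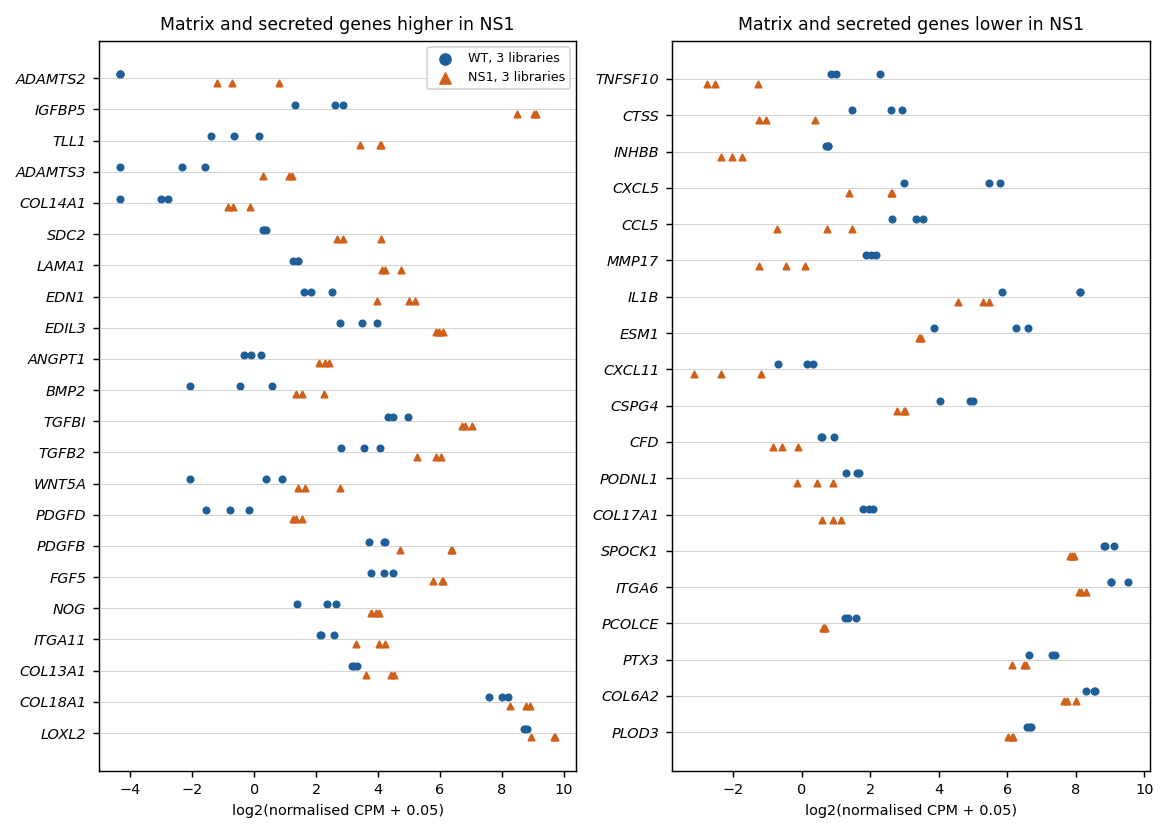
Matrix and secreted genes, 22 higher in NS1 cells on the left and 19 lower on the right, each with its 3 WT (circles) and 3 NS1 (triangles) libraries on the scale log2(normalised CPM + 0.05). IGFBP5, TLL1 and LAMA1 are apart by line in all libraries on the left, and ADAMTS2 sits at 0 CPM in all WT libraries. In ESM1, IL1B and CXCL5 WT replicate 1 lies between the other WT libraries and the NS1 libraries.

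Growth factors were higher in 10 and lower in 3 of 36 genes tested (over all genes 5.45% higher, 7.05% lower), with a median of 0.05. Endothelin 1 (EDN1), a vasoconstrictor peptide, had 5.62, 3.53 and 3.00 CPM in WT and 15.6, 32.0 and 36.3 in NS1 libraries (log2 fold change 2.73, SE 0.47, adjusted p 0.00293). FGF5, a fibroblast growth factor, had 13.6, 22.2 and 18.3 CPM in WT and 55.2, 66.4 and 67.9 in NS1 libraries (1.81, SE 0.23, adjusted p 0.000492). ANGPT1, the ligand that activates the receptor TEK, had 0.75, 1.13 and 0.87 CPM in WT and 5.25, 4.80 and 4.23 in NS1 libraries (2.40, SE 0.26, adjusted p 0.00016). All NS1 libraries lay above all WT libraries in these genes. The platelet-derived growth factors PDGFD and PDGFB were higher, by 2.08 (SE 0.32) and 1.95 (SE 0.45). PDGFB had 13.1, 18.6 and 18.1 CPM in WT and 26.4, 83.1 and 82.0 in NS1 libraries, and its adjusted p of 0.0148 became 0.0502 without WT replicate 1, 0.058 without NS1 replicate 2 and 0.0547 without NS1 replicate 3. The 3 lower genes all lie on the stretches with lower medians.

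Among ligands and antagonists of the TGF-beta and Wnt families, 5 of 28 were higher and 1 lower, with a median of 0.25. Over all genes 5.45% were higher and 7.05% lower. TGFB2, a TGF-beta ligand, had 16.7, 11.6 and 6.86 CPM in WT and 38.5, 58.4 and 65.0 in NS1 libraries (log2 fold change 2.17, SE 0.35, adjusted p 0.00198). BMP2, a bone morphogenetic protein, had 0.187, 0.676 and 1.45 CPM in WT and 4.69, 2.83 and 2.50 in NS1 libraries (2.32, SE 0.50, adjusted p 0.0101). Noggin (NOG), an antagonist that binds BMPs, was higher as well, with 2.58, 6.16 and 5.03 CPM in WT and 16.2, 15.2 and 13.8 in NS1 libraries (1.75, SE 0.43, adjusted p 0.0193). WNT5A, a ligand of noncanonical Wnt signalling, had 0.187, 1.80 and 1.26 CPM in WT and 6.73, 2.62 and 3.08 in NS1 libraries (2.08, SE 0.62, adjusted p 0.0437). INHBB, the beta B chain of activins and inhibins, was lower, with 1.64, 1.58 and 1.64 CPM in WT and 0.247, 0.145 and 0.192 in NS1 libraries (-2.98, SE 0.34, adjusted p 0.000216). NOG lost its call in 4 of the 6 fits without a single library (0.0501 to 0.0654) and WNT5A in 5 (0.0551 to 0.182, the latter without NS1 replicate 1). The list had 4 to 6 calls in those fits.

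Targets of these pathways were called in the higher direction. Of 18 TGF-beta SMAD targets, 9 were higher and 0 lower (50% called, against 5.45% of all genes higher), with a median of 0.69. SMAD7, a feedback inhibitor of TGF-beta receptors on chromosome 18, had 7.03, 5.71 and 3.77 CPM in WT and 22.7, 24.3 and 20.6 in NS1 libraries (log2 fold change 2.00, SE 0.21, adjusted p 9.14e-05). BAMBI, a decoy receptor, had 0.656, 0.601 and 0.677 CPM in WT and 4.20, 2.91 and 1.63 in NS1 libraries (2.19, SE 0.42, adjusted p 0.00499), on chromosome 10 below 40 Mb where most genes were lower. ID2, a target of BMP signals that inhibits helix-loop-helix factors, had 4.08, 1.88 and 2.42 CPM in WT and 13.1, 7.78 and 6.44 in NS1 libraries (1.67, SE 0.45, adjusted p 0.0284). With the median of each member's chromosome stretch taken off, the list median was 0.67. ID2 lost its call in 4 of the 6 fits without a single library (up to 0.115 without NS1 replicate 1). The list had 5 calls without WT replicate 3 or NS1 replicate 2 and 7 to 10 without the others.

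Of 24 YAP-TEAD targets, 10 were higher and 0 lower (over all genes 5.45% higher, 7.05% lower). Their median was 0.61, with 22 of 24 above 0. Of the 10 higher, 1 lies on chromosome 18 or chromosome 10 above 40 Mb. With stretch medians taken off, the list median was 0.54. CCN2, a matricellular protein that is also on the SMAD list, had 128, 244 and 207 CPM in WT and 349, 482 and 480 in NS1 libraries (log2 fold change 1.18, SE 0.27, adjusted p 0.014). RBMS3, an RNA-binding protein, had 9, 11.2 and 8.41 CPM in WT and 30.9, 19.8 and 20.004 in NS1 libraries (1.31, SE 0.23, adjusted p 0.00352). ANKRD1, a titin-associated protein in common use as a readout of YAP, had 24.9, 26.1 and 20.1 CPM in WT and 30.5, 91.9 and 76.6 in NS1 libraries (1.48, SE 0.38, adjusted p 0.023). NS1 replicate 1 was near the WT libraries in ANKRD1. The genes lost calls with single libraries left out: ANKRD1 in 5 fits (0.0525 to 0.0968), GADD45B in 5 (up to 0.168 without NS1 replicate 2) and CCN2 without NS1 replicate 2 or 3 (0.0518 and 0.0502). The list had 4 calls without WT replicate 3, NS1 replicate 2 or NS1 replicate 3, and 7 to 12 without the others.

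Of 12 Wnt targets, 3 were higher and 1 lower (over all genes 5.45% higher, 7.05% lower), with a median of 0.41. LEF1, a nuclear partner of beta-catenin, had 0.422, 0.45 and 0.58 CPM in WT and 5.99, 1.89 and 1.73 in NS1 libraries (log2 fold change 2.78, SE 0.54, adjusted p 0.00582). SP5, a factor in the same pathway, had 0.234, 0.601 and 0.29 CPM in WT and 1.48, 1.16 and 2.89 in NS1 libraries (2.28, SE 0.43, adjusted p 0.00479). LGR4, a receptor for R-spondins on chromosome 11, was lower (-0.86, SE 0.15, adjusted p 0.00285). Hedgehog genes had 2 of 8 higher, SUFU (0.51, SE 0.15, adjusted p 0.0414) and KIF7 (0.46, SE 0.12, adjusted p 0.0235), both negative regulators. Of these, 1 lies on chromosome 18 or chromosome 10 above 40 Mb, where most genes were higher. Neither kept its call when WT replicate 3 (0.118 and 0.0674) or NS1 replicate 3 (0.0838 and 0.0894) was left out. SUFU also lost its call without WT replicate 2 (0.114) or NS1 replicate 1 (0.152), and KIF7 without WT replicate 1 (0.0846) or NS1 replicate 2 (0.0806). Notch genes had 2 of 15 lower, the repressor HES1 (-0.67, SE 0.16, adjusted p 0.0148) and HES6 (-0.85, SE 0.18, adjusted p 0.00824). HES1 lost its call without WT replicate 3, NS1 replicate 2 or NS1 replicate 3 (0.0554, 0.0739 and 0.0583).

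Most interferon-stimulated genes tested were lower. Of 63 tested, 44 were lower and 0 higher (69.8% called, against 7.05% of all genes lower), 60 were below 0, and the median was -0.79. The summed level of the list was 3687 to 4122 CPM in WT and 2201 to 2659 in NS1 libraries, without overlap. OAS2, which makes the activator of RNase L on sensing double-stranded RNA, had 65.2, 53.6 and 39.1 CPM in WT and 6.60, 18.7 and 15.2 in NS1 libraries (log2 fold change -1.98, SE 0.42, adjusted p 0.00923). ISG20, an RNA exonuclease, had 16.6, 33.4 and 45.5 CPM in WT and 6.36, 9.81 and 9.33 in NS1 libraries (-1.90, SE 0.39, adjusted p 0.00823). TRIM22, an antiviral ubiquitin ligase, had 14.9, 11.3 and 12 CPM in WT and 1.73, 4.72 and 4.04 in NS1 libraries (-1.89, SE 0.35, adjusted p 0.00401). LAMP3, a lysosomal protein of dendritic cells, had 5.11, 10.1 and 7.35 CPM in WT and 1.54, 1.53 and 1.15 in NS1 libraries (-2.38, SE 0.41, adjusted p 0.00314). MX1, a GTPase that blocks influenza virus, had 38.6, 46.5 and 39.6 CPM in WT and 1.6, 16.4 and 10.6 in NS1 libraries (-2.15, SE 0.65, adjusted p 0.0471). NS1 replicate 1 was the lowest NS1 library in OAS2, ISG20, TRIM22 and MX1. MX1 lost its call in 5 of the 6 fits without a single library (0.0699 to 0.108).

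Interferon genes were lower both on and off the stretches with lower medians. Of 17 members tested there 14 were called lower, and of 46 elsewhere 30. With the stretch medians taken off, an alternative chosen after the data were seen, the list median was -0.83. The list had 30 to 39 calls when single libraries were left out and 46 without replicate 1 of all groups, but 4 without replicate 2 and 9 without replicate 3, fits in which 204 and 182 of all genes were called. In the treated libraries 9 members were lower and 3 higher, and the median was -0.09. The difference between the treated and untreated contrasts had adjusted p of 0.152 for OAS2 and 0.201 for MX1 in edgeR's interaction test.

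Upstream genes of the interferon pathway and antigen presentation followed in part. Of 24 interferon receptor and signalling genes 8 were lower and 0 higher (over all genes 7.05% lower, 5.45% higher). Their median was -0.36. IRF9, the DNA-binding part of the complex named above, had 23.5, 24.2 and 32.5 CPM in WT and 8.02, 14.1 and 14.1 in NS1 libraries (log2 fold change -1.15, SE 0.25, adjusted p 0.0106). IL10RB, a shared receptor chain for type III interferons and interleukin 10, had 33.5, 26.3 and 30.7 CPM in WT and 20.1, 19.2 and 16.8 in NS1 libraries (-0.69, SE 0.13, adjusted p 0.00509). Negative regulators of the pathway were among the lower genes. USP18, which removes ISG15 and damps the receptor, had 9.14, 9.68 and 10.1 CPM in WT and 2.47, 4.29 and 3.94 in NS1 libraries (-1.44, SE 0.25, adjusted p 0.00341). SOCS1, an inhibitor of JAK kinases, had 0.843, 2.40 and 2.42 CPM in WT and 0.247, 0.363 and 0.288 in NS1 libraries (-2.57, SE 0.70, adjusted p 0.0305), and lost its call in 5 of the 6 fits without a single library (0.0797 to 0.102). The list had 3 calls without any of the NS1 libraries, 4 without WT replicate 3 and 5 without WT replicate 2.

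Of 25 antigen presentation genes 6 were lower and 0 higher (over all genes 7.05% lower, 5.45% higher). Their median was -0.35, and 0 of the 25 lie on the stretches with lower medians. PSMB9, an immunoproteasome subunit, had 23.1, 17.3 and 23.9 CPM in WT and 5.86, 10.7 and 8.37 in NS1 libraries (log2 fold change -1.37, SE 0.23, adjusted p 0.00278). HLA-F, a nonclassical class I molecule, had 6.04, 7.13 and 6.96 CPM in WT and 3.21, 4.36 and 3.56 in NS1 libraries (-0.85, SE 0.17, adjusted p 0.00705). Class I genes share sequence, so reads may be split among them. The list had 2, 3, 4 and 4 calls without NS1 replicate 1, NS1 replicate 3, NS1 replicate 2 and WT replicate 1.

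The cytokine and chemokine calls were all lower in NS1 cells. Of 32 tested, 10 were lower by at least 2-fold (over all genes 1.96%), 0 were higher and 22 were not called. Of the 32, 30 were below 0, and the median was -1.55. CCL5, which attracts T cells, had 11.5, 6.08 and 9.96 CPM in WT and 0.555, 1.6 and 2.69 in NS1 libraries (log2 fold change -2.59, SE 0.48, adjusted p 0.00452). TNFSF10, the death ligand TRAIL and itself an interferon-stimulated gene, had 4.78, 1.95 and 1.74 CPM in WT and 0.123, 0.363 and 0.0962 in NS1 libraries (-3.83, SE 0.66, adjusted p 0.00285). IL1B, the inflammatory cytokine interleukin 1 beta, had 57.6, 278 and 276 CPM in WT and 23.4, 39.1 and 43.8 in NS1 libraries (-2.53, SE 0.60, adjusted p 0.0159). CXCL5, a neutrophil chemokine, had 7.82, 55.2 and 44.0 CPM in WT and 2.53, 6.03 and 6.16 in NS1 libraries (-2.87, SE 0.81, adjusted p 0.0352). In IL1B and CXCL5 replicate 1 was the lowest library of both lines. CCL5 and TNFSF10 kept their calls without each single library, IL1B lost its call in 3 fits (0.0532 to 0.0612) and CXCL5 in 5 (0.0826 to 0.117). The list had 15 calls without WT replicate 1 and 2 to 4 without any of the other 5 libraries.

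The NF-kB list had few calls, all of them lower. Of 22 tested, 22 were below 0, with a median of -0.76, and 4 were called lower (over all genes 7.05%). BCL3, an atypical inhibitor of NF-kB, had 7.22, 7.21 and 7.25 CPM in WT and 3.83, 3.63 and 2.79 in NS1 libraries (log2 fold change -1.06, SE 0.20, adjusted p 0.00451). CXCL1, a neutrophil chemokine also on the cytokine list, had 35.8, 121 and 89.9 CPM in WT and 12.5, 24.3 and 21.5 in NS1 libraries (-2.08, SE 0.55, adjusted p 0.0263), with a call lost in 5 of the 6 fits without a single library (0.0629 to 0.0933). The list had 8 calls without WT replicate 1, and 1 or 2 without any of the other 5 libraries. Acute phase and complement genes had 2 of 19 lower, PTX3 and CFD, and 0 or 1 call without any single library.

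Part of the lipid synthesis genes were lower, most of them on the stretches with lower medians. Of 19 fatty acid genes 6 were lower and 1 higher (over all genes 7.05% lower, 5.45% higher). Their median was -0.51, and 5 of the 6 lie on those stretches. FADS2, a desaturase of polyunsaturated fatty acids on chromosome 11, had 107, 111 and 116 CPM in WT and 57.7, 69.8 and 70.0 in NS1 libraries (log2 fold change -0.76, SE 0.12, adjusted p 0.00175). SREBF1, the transcription factor of the pathway on chromosome 17, had 119, 87.5 and 87.4 CPM in WT and 37.9, 59.96 and 63.5 in NS1 libraries (-0.87, SE 0.25, adjusted p 0.04), and lost its call in all 6 fits without a single library (0.0574 to 0.134). Of 25 cholesterol synthesis genes 5 were lower and 1 higher, with a median of -0.50 and 22 of 25 below 0. With stretch medians taken off, the list medians were -0.41 and -0.39. The fatty acid list had 4 calls without WT replicate 1, NS1 replicate 1 or NS1 replicate 2, and the cholesterol list 2 to 4 without any single library.

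Targets of ATF4, the transcription factor of the amino acid response, were lower in 6 and higher in 1 of 20 genes. Over all genes 7.05% were lower and 5.45% higher. The list median was -0.51, with 19 of 20 below 0. Asparagine synthetase (ASNS), on chromosome 7, had 31.3, 52.5 and 48.9 CPM in WT and 17.8, 20.4 and 18.1 in NS1 libraries (log2 fold change -1.23, SE 0.19, adjusted p 0.00161). PSPH, the last enzyme of serine synthesis and also on chromosome 7, had 18.6, 20.9 and 21.4 CPM in WT and 10.5, 8.36 and 7.69 in NS1 libraries (-1.19, SE 0.15, adjusted p 0.000524). SLC7A5, an amino acid transporter on chromosome 16, had 1349, 1275 and 1153 CPM in WT and 476, 722 and 658 in NS1 libraries (log2 fold change -1.03, SE 0.22, adjusted p 0.0101). Of the 6 lower members 3 lie on the stretches with lower medians, and with stretch medians taken off the list median was -0.56. The list had 4 calls without WT replicate 3 or NS1 replicate 1. Proliferation genes had 5 of 30 lower, MCM7, AURKB, TOP2A, TPX2 and BIRC5, of which 4 lie on those stretches, with a median of -0.18. The list had 3 calls without NS1 replicate 2 or 3.

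Receptor tyrosine kinases had 7 of 27 higher and 2 lower (over all genes 5.45% higher, 7.05% lower), with a median of 0.07. The ephrin receptors EPHB6, EPHB1 (log2 fold change 1.81, SE 0.36, adjusted p 0.00674) and EPHB3 (1.49, SE 0.32, adjusted p 0.0098) were among the higher genes. ERK output genes had 1 of 16 higher and 1 lower, with a median of -0.04. The lower one was ETV4, an ETS factor on chromosome 17 induced by ERK, with 22.8, 30.9 and 34.2 CPM in WT and 13.3, 13.2 and 14.6 in NS1 libraries (-1.09, SE 0.19, adjusted p 0.00303). Of 13 genes of RAS and the SCF ligase, 2 were higher and 1 lower. MRAS, a RAS-related GTPase, had 1.17, 0.976 and 0.677 CPM in WT and 4.69, 2.04 and 3.27 in NS1 libraries (1.77, SE 0.37, adjusted p 0.00823). CUL1, the scaffold of SCF ligases on chromosome 7, had 57.3, 51.5 and 46.8 CPM in WT and 43.7, 38.1 and 35.5 in NS1 libraries (-0.41, SE 0.12, adjusted p 0.0387), a difference of 0.00 once the median of chromosome 7 is taken off. CUL1 lost its call without WT replicate 1 or 2 or NS1 replicate 2 or 3 (0.0716 to 0.14). SKP1 and RBX1, its partners, were not called (0.30, SE 0.10 and -0.23, SE 0.12). HRAS had 182, 186 and 274 CPM in WT and 184, 178 and 194 in NS1 libraries without a call (-0.21, adjusted p 0.377). Its transcript does not check the labels, because the degradation system acts on protein. That list had 1 call without WT replicate 1 or NS1 replicate 2, and the ERK list 1 without WT replicate 3 or any of the NS1 libraries. Of 20 glycolysis, 25 hypoxia, 18 NRF2, 20 p53 and 9 retinoid genes tested, 2, 4, 2, 2 and 1 were called (over all genes 12.5%). The NRF2 calls were higher, the glycolysis, p53 and retinoid calls lower, and hypoxia had 2 higher and 2 lower. The hypoxia list had 1 or 2 calls without any single library. In treated cells 12 of the 18 NRF2 genes were higher and 0 lower, where 28.2% of all genes were called.

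The treated libraries measured the same lines with 5-Ad-IAA, so their contrast also includes any effect of the compound that differs between the lines. Of 30 proliferation genes tested, 29 were lower in treated cells, beside 5 in untreated cells. Of the 2222 genes called in untreated cells, 2140 (96.31%) had the same sign in treated cells, 1669 (75.11%) were called there too, and 2 were called with the opposite sign. In the treated contrast 28.2% of all genes were called. The lists differed in how their medians compared between the contrasts. The TGF-beta SMAD list had 13 members of 18 higher and a median of 0.94 in treated cells, and the YAP-TEAD list 17 of 24 higher, 3 lower and a median of 0.87, each beside the untreated medians of 0.69 and 0.61. For the interferon list the treated median of -0.09 stood beside -0.79, and for the cytokine list -0.87 beside -1.55. Among single genes, OAS2 had a log2 fold change of 0.01 in treated cells beside -1.98, and MX1 0.57 beside -2.15. RTN1, IGFBP5, PEG10, SGCE, HOXA7 and TFAP2C were called in the same direction in treated cells, with log2 fold changes of 7.62, 6.44, -11.9, -11.2, -5.03 and -4.47 in the fit, where those of PEG10 and SGCE depend on the prior count.

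**Figure D4:**
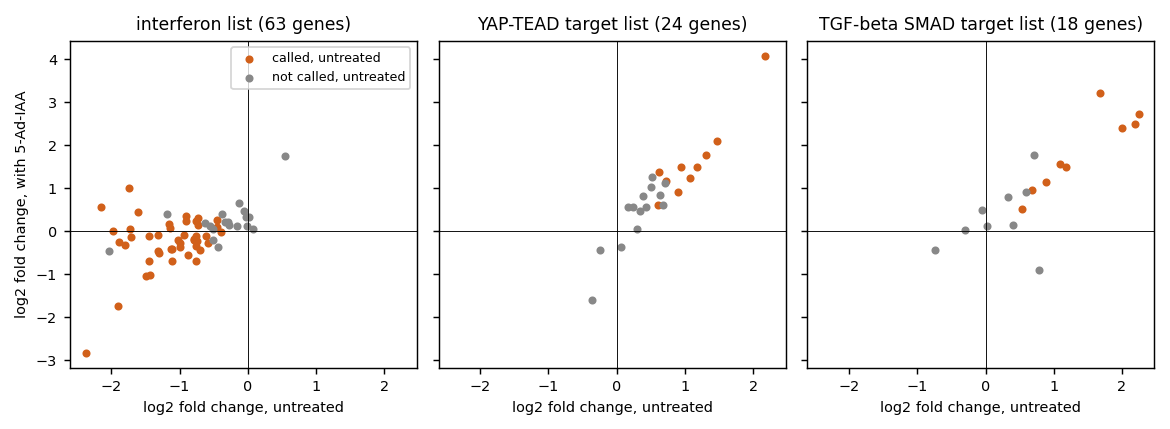
Each point is a gene of the interferon, YAP-TEAD target or TGF-beta SMAD target list, with its log2 fold change of NS1 against WT in untreated libraries on the x axis and in treated libraries on the y axis. Orange points were called in untreated libraries. Of 63 interferon genes 60 lie left of 0 on the x axis, with a treated median of -0.09 on the y axis, while the called genes of the other lists lie above 0 on both axes.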

How the data were processed

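Poly(A) RNA of T24 cells was sequenced in 12 libraries, 3 for each line and treatment. Reads were aligned to hg38 with STAR 2.7.3a and counted with featureCounts 1.6.4, per the submitters' processing notes. The strand setting and annotation release are not given in the sources used here. The deposited table holds whole-number counts per gene for 60603 genes, of which 60261 matched a symbol. From these counts edgeR 4.0.16 (R 4.3.3, limma 3.58.1) fitted a quasi-likelihood model with a mean for each of 4 groups over all 12 libraries, with TMM scaling and the filterByExpr filter, which left 17775 genes. Calls needed an adjusted p (Benjamini-Hochberg) under 0.05. DESeq2 1.42.0 and other settings were alternatives. Log2 fold changes are those of the edgeR fit at its default prior count. A prior count of 2 was used only for log2 CPM in the principal components and library correlations. Bounds and counting intervals (95%) cover counting error only, with a floor of 3 counts. Positions are from GENCODE release 29, where 17617 tested genes were located. Promoters are from RefSeq.

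The text names the 15 highest and 15 lowest genes called without overlap of the groups and averaging 1 CPM or more in the 6 untreated libraries, up to 5 called members of each of 41 lists by size of change and without overlap, and a set of urothelial, RAS and SCF genes whatever their values. A gene that this rule names is not reported here. The members and lists were chosen with earlier results of these data known. On simulated counts for this comparison (17775 genes, 200 changed), 74% of genes changed 2-fold and 93% of those changed 4-fold were called, with 10 false calls among 177. The simulated counts had no replicate effect and no chromosome shifts, so they do not measure false calls in the real libraries.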

Additional observations from a re-analysis of the deposited data

Results flagged for a closer look

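FABP4, a fatty acid carrier, had log2 fold changes of NS1 against WT of 1.06 in untreated and -0.97 in treated libraries. The difference of -2.04 had an adjusted p of 0.0255 in edgeR's interaction test over all genes.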

How the results depend on the processing

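Of the 2222 genes called, the count rose to 3466 without replicate 1 of all groups and dropped to 204 without replicate 2 and 182 without replicate 3. With single untreated libraries left out it lay between 1198 and 1780. Genes called with at least a 2-fold change, 681 in all, were 1057 with no low-count filter and 423 with at least 10 counts in every library, and 963, 174 and 140 without replicates 1, 2 and 3 of all groups. Of 161 named genes called, 96 kept the call in all 6 fits without a single library, while 12, 118 and 123 lost it without replicates 1, 2 and 3 of all groups. Libraries of the lines went together weakly by replicate number. The same-number correlations of deviations from the group means were 0.136, 0.072 and 0.19. Those of different numbers lay between -0.148 and -0.019. The main model had no term for the replicate. The replicate block gave 3908 calls, which included all 2222, and 4312, 1230 and 1422 without replicates 1, 2 and 3. Scaling by library totals gave 36.8% of calls higher, against 43.6%. Signs of genes that were not called turned in some fits. GATA3 had 0.25 without replicate 1, with or without the replicate block, and 0.342 without WT replicate 1, the highest of a range that began at -0.291. KRT8 had 0.064 without replicate 1, 0.073 with the block and 0.087 without NS1 replicate 1, from a low of -0.319. FN1 had 0.04 without replicate 2, 0.034 with the block and 0.077 without WT replicate 2, from a low of -0.724. With single libraries left out, KRT17 ranged from -0.924 to 0.103 without NS1 replicate 1, and HRAS from -0.313 to 0.008 without WT replicate 3. The cause was not tested. List medians less those of the chromosome stretches were chosen after seeing the data.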
